A study of Homo sapiens with 4 samples.

Results

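MCF12A cells exposed to 25 mM ethanol for 1 week were compared with control 1, the unexposed culture that the labels tie to the ethanol experiment. The comparison used 2 of the 4 arrays in the study, and both were chosen by their labels alone. MCF12A is an established, non-tumorigenic line of human breast epithelium. The other arrays came from a second experiment, with an unexposed culture (control 2) and a culture kept in 2.5 mM acetaldehyde, also for 1 week. All 4 cultures were monolayers in a medium with horse serum, insulin, hydrocortisone, cholera toxin and epidermal growth factor, so controls and exposed cells alike were under a steroid, a growth factor and an agent that raises cyclic AMP. Total RNA was read on Affymetrix Human Gene 1.0 ST arrays, which give 1 linear intensity per probe set. A difference below is the log2 intensity with ethanol minus that in control 1, so that -1 is a level 2-fold lower with ethanol. With 1 array a side there was no test and nothing to check a value against, and the small number of arrays limits precision throughout.

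Ethanol is oxidised by alcohol dehydrogenases to acetaldehyde, a reactive compound, which aldehyde dehydrogenases turn into acetate. Cells of stratified epithelia that leave the basal layer exchange basal keratins for suprabasal ones and assemble a cornified envelope, a shell of proline-rich and other precursors that transglutaminases crosslink under the membrane. They also make barrier lipids, and secrete kallikrein proteases that cut desmosomes, with inhibitors that hold these proteases back. Breast epithelium has basal and luminal layers, and in tissue it does not normally cornify.

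Over all 33297 probe sets, median intensities were 92.2 (control 1) and 90.2 (ethanol) in the ethanol pair, and 113.8 and 113.0 in the other experiment. The experiments therefore appear to have been normalized separately, and levels of control 2 and acetaldehyde are given beside the ethanol pair only as context, on a scale that may differ. Of 18417 genes, 10373 were kept because their highest value on the 4 arrays reached an intensity of 155. The label of the line was checked on 10 epithelial markers, all of which were kept, with a summed intensity of 35792 in control 1 and 40434 with ethanol. The basal keratin KRT5 was at 11172 and 9757 and the luminal keratin KRT8 at 3156 and 5292, and KRT17 and TP63 had no probe set under their symbol alone. Of 23 markers of immune, endothelial, fibroblast, muscle, neural, liver and red blood cells on the array, 18 were not kept, and these summed to 878 in control 1 and 802 with ethanol. The 5 kept were CD68, CD14, COL1A1, DCN and DES, with differences from -0.34 to 0.60. These 5 summed to 2206 in control 1 and 2381 with ethanol. Most of that was CD68, a macrophage marker, at 1622 and 1764, and CD14 was at 189 and 287. The T cell marker CD3E was at 35.6 and 31.1 and the leukocyte marker PTPRC at 10.9 and 10.3. In bulk RNA such as this, fewer cells of a type and less RNA per cell cannot be told apart.

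Most genes differed little between the cultures. The median difference was 0.05, with quartiles of -0.13 and 0.23, and 9371 of the 10373 kept genes (90.3%) lay within 1.5-fold. Of all kept genes, 57.8% were above control 1 and 42.2% below it. Counts of list members above or below control 1 are to be read beside these shares. At least 2-fold lower with ethanol were 219 genes (2.11%), and at least 2-fold higher were 121 (1.17%). The lower side reached much further: 91 genes were at least 4-fold lower against 5 at least 4-fold higher, and 33 were at least 8-fold lower against 0 higher. With ethanol, 95 of the 219 lower genes lay under the intensity used as a filter, so their folds rest on dim values, and 45 of the 121 higher genes lay under it in control 1. Control 2 was itself low for part of the lower genes. Of the 219 lower genes, 146 were below control 2 as well (1.41% of all kept genes). Of the 121 higher genes, 88 were also above control 2 (0.848% of all kept genes).

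**Figure D1:**
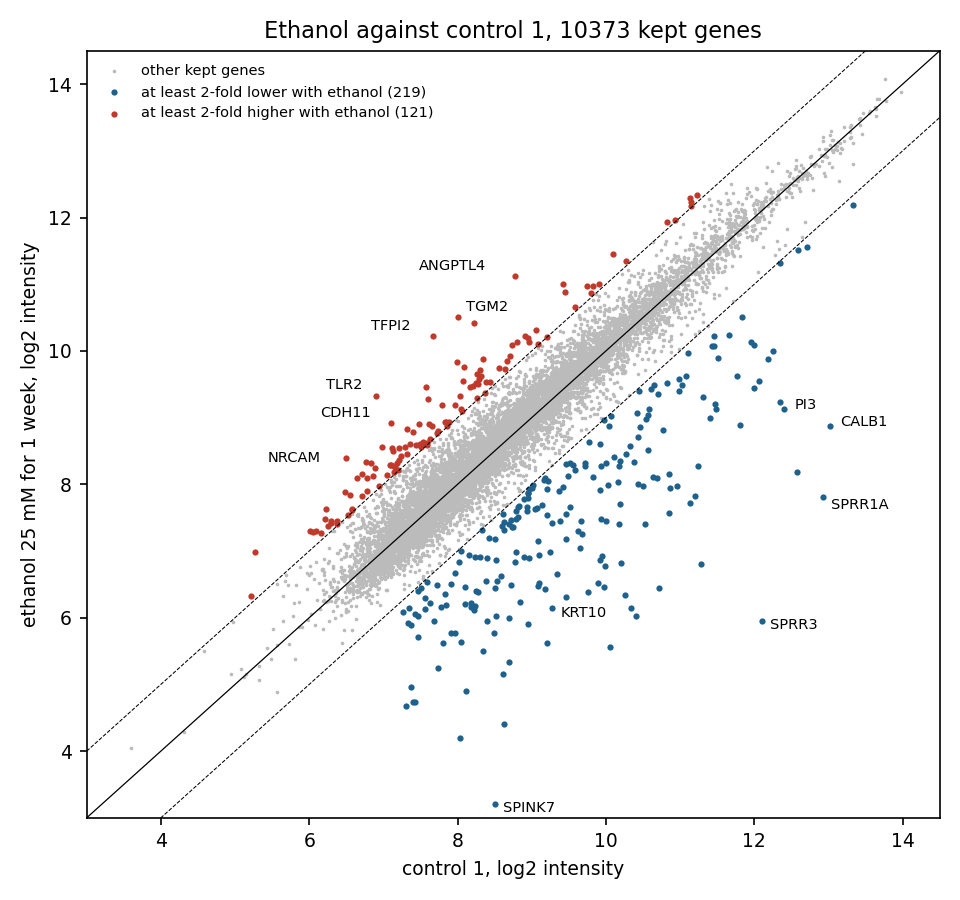
Each point is 1 of the 10373 kept genes, with its log2 intensity in control 1 on the horizontal axis and with ethanol on the vertical axis; the solid line marks equal values and the dashed lines 2-fold differences. The 219 genes at least 2-fold lower (blue) spread much further from the line than the 121 at least 2-fold higher (red), with SPRR3 and SPINK7 lowest.

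The small proline-rich precursors of the cornified envelope had the lowest median of the groups described. All 10 small proline-rich (SPRR) genes were on the array, 6 were kept, and these 6 were at least 2-fold lower with ethanol, with a median of -3.72. Over all 10, dim members included, the median was -2.26. SPRR3 had an intensity of 4404 in control 1, 61.8 after ethanol, 162 in control 2 and 152 after acetaldehyde, a 71.3-fold difference within the ethanol pair. SPRR1A was at 7795 in control 1, 225 after ethanol, 1581 in control 2 and 752 after acetaldehyde. SPRR1B was at 6129, 291, 2282 and 1077 on the same arrays. In all 3 genes control 1 was by far the highest array and ethanol the lowest, and control 2 lay between them, much nearer to ethanol for SPRR3. SPRR2A, SPRR2F and SPRR2G were lower by differences of -3.05, -2.05 and -2.32, but SPRR2A stood at 47.5 in control 2, below its ethanol value of 60.0. SPRR2G has several probe sets, and with their mean its difference was -1.59. The SPRR2 genes resemble each other closely, so probes may read several of them.

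Other envelope proteins were lower as well: of 22 on the array, 14 were kept and 13 of these were at least 2-fold lower, with a median of -2.59, or -1.87 with dim genes included. Involucrin (IVL), an early scaffold of the envelope, was at 648 in control 1, 101 after ethanol, 190.4 in control 2 and 133 after acetaldehyde. Filaggrin (FLG), which bundles keratin filaments, was at 326 in control 1 and 45.1 with ethanol. CRCT1 differed by -3.91, KRTDAP by -3.36, corneodesmosin (CDSN), an adhesive protein of cornified cells, by -3.12 and cornifelin (CNFN) by -3.06. Control 2 lay far below control 1 for each of these 6 genes, so control 1 stood alone at a high level. The protease inhibitor cystatin A (CSTA) stood apart, at 2547 in control 1, 637 after ethanol, 1634 in control 2 and 1410 after acetaldehyde, with ethanol the lowest of the arrays by a wide margin. The plakins envoplakin (EVPL) and periplakin (PPL), which anchor the envelope, differed by -1.06 and -1.74. Among the transglutaminases that crosslink these proteins, TGM1, the membrane enzyme of cornifying cells, was at 2416 in control 1 and 311 with ethanol, and TGM5 at 177 and 84.5. TGM1 was at 434 in control 2, so control 1 stood apart for this gene. TGM2, the tissue transglutaminase that also binds fibronectin, went the other way, at 256 in control 1 and 1451 with ethanol, but it was at 1275 in control 2 and 1919 with acetaldehyde, so control 1 was the array that stood apart.

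Suprabasal and stress keratins were lower, whereas basal and simple keratins lay near control 1. All 9 kept suprabasal and stress keratins were below control 1, 7 of them at least 2-fold, with a median of -2.28. KRT10, the type I keratin of suprabasal cells, was at 1298 in control 1, 70.5 after ethanol, 1571 in control 2 and 290.0 after acetaldehyde. Both controls were high for KRT10 and the ethanol array was lowest, at 18.4-fold below control 1. KRT16, a keratin of wounded and proliferating epidermis, was at 4267 in control 1, 750.3 after ethanol, 2743 in control 2 and 1164 after acetaldehyde. KRT4 and KRT13, the pair of keratins of internal stratified epithelia, differed by -3.38 and -1.39, KRT23 by -2.49, KRT80 by -2.28 and KRT78 by -2.11. KRT1, the usual partner of KRT10, was dim in the ethanol pair, at 86.9 and 49.2, and differed by -0.82. The median of the 7 kept basal and simple keratins was -0.15: the basal keratins KRT14, KRT15 and KRT5 differed by -0.66, -0.39 and -0.20, while the luminal pair KRT8 and KRT18 was higher by 0.75 and 0.63 and KRT7 differed by 0.00.

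The S100 calcium-binding proteins split by member. The calprotectin subunits S100A8 and S100A9, which respond to stress and inflammation in epithelia, were at least 2-fold lower. S100A8 was at 3973 in control 1, 1129 after ethanol, 6998 in control 2 and 4748 after acetaldehyde, and S100A9 at 1747, 448, 2274 and 1188. In both genes the ethanol array was lowest and both controls lay above it. S100P differed by -1.58, S100A14 by -0.97 and S100A7 by -0.81, whereas S100A6, S100A2 and S100A13 differed by 0.07, 0.10 and 0.18. In all, 3 of 13 kept S100 genes were at least 2-fold lower, with a median of -0.15.

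Kallikreins and the SPINK and WAP inhibitors were both below control 1 as groups. Of the 8 kept kallikreins, 7 were at least 2-fold lower, with a median of -2.19. KLK5, which starts the kallikrein cascade of shedding skin, was at 3469.9 in control 1, 789 after ethanol, 117 in control 2 and 114 after acetaldehyde. KLK7, the chymotrypsin-like member that KLK5 activates, was at 2844, 593, 221 and 173, and KLK8 differed by -2.59, KLK6 by -2.43 and KLK10 by -2.25. For KLK5 and KLK7 the ethanol array was below control 1 but above control 2, so control 1 again stood apart, and against control 2 the median of the kallikreins was 0.23. Among the SPINK and WAP inhibitors, 6 of 13 on the array were kept and 4 were at least 2-fold lower, with a median of -1.29, or -0.64 with dim genes included. PI3 (elafin), an elastase inhibitor and transglutaminase substrate, was at 5416 in control 1, 563 after ethanol, 4120.1 in control 2 and 1911 after acetaldehyde, so that both controls lay far above ethanol. Its neighbour SLPI, another elastase inhibitor, was at 10297, 4686, 7484 and 6049.8. SPINK7 differed by -5.29, from 363 to 9.28, and the latter is below the lower quartile of the ethanol array, 29.7.

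Of 6 kept serpins of clade B, whose members mostly act inside cells, 3 were at least 2-fold lower. The median was -1.82, but it was -0.27 with dim genes included and 0.86 against control 2. SERPINB3, SERPINB7 and SERPINB13 differed by -3.41, -3.38 and -3.38, while SERPINB8, SERPINB1 and SERPINB5 (maspin) lay between -0.27 and -0.01. SERPINB3 was at 2243 in control 1, 211 after ethanol, 754 in control 2 and 856 after acetaldehyde. In a mixed list of other serpins, Kunitz inhibitors and relatives of alpha-2-macroglobulin, 6 of 9 kept genes were above control 1 (66.7%, against 57.8% of all kept genes). Of these 9, 3 were at least 2-fold higher and 1 lower, with a median of 0.71. With dim genes included that median was -0.08. SERPINA1 (alpha-1-antitrypsin), which blocks neutrophil elastase, was at 298 in control 1, 1371 after ethanol, 504 in control 2 and 496 after acetaldehyde, and the ethanol array was the highest of the 4. TFPI, an inhibitor of the tissue factor pathway of clotting, was at 287, 703, 199 and 225, again with ethanol highest. TFPI2 had the largest positive difference, 2.55, from 204 to 1193, but it was at 2399 in control 2 and 4033 with acetaldehyde. The alpha-2-macroglobulin relative A2ML1, made by differentiating keratinocytes, differed by -3.12.

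Of 25 kept barrier lipid genes, 18 were below control 1 and 9 at least 2-fold lower, with a median of -0.68. With genes filtered on their mean over the 4 arrays instead of their highest value, the median was -0.13. CERS3, the ceramide synthase for very long acyl chains, was at 1063 in control 1, 47.2 after ethanol, 132 in control 2 and 68.9 after acetaldehyde. CYP4F22, which hydroxylates the fatty acids of these ceramides, differed by -3.59, the lipase LIPK by -3.46, the ceramidase ACER1 by -2.69, the glycolipid carrier GLTP by -2.35 and SULT2B1, which makes cholesterol sulfate, by -2.22. The lipoxygenases ALOX12B and ALOXE3, which act in sequence on the same ceramides, differed by -1.88 and -0.84, and ELOVL4 by -1.42. The serine palmitoyltransferase subunits SPTLC1 and SPTLC2, which begin all ceramide synthesis, differed by 0.06 and -0.04, CERS2 by 0.23 and the desaturase DEGS1 by 0.36.

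Cell junctions differed mainly in desmosomes. Of 12 kept desmosome genes, 11 were below control 1 and 5 at least 2-fold, with a median of -0.88. DSG3, the desmoglein of basal and lower layers, was at 6733 in control 1, 3008 after ethanol, 2863 in control 2 and 1677 after acetaldehyde. DSP (desmoplakin), which ties the junction to keratin, was at 5195, 2561, 4613 and 3457, with ethanol lowest. DSG1, the desmoglein of upper layers, differed by -2.66 and DSG4 by -2.23, and DSC2 by -1.39. DSG2, the form of simple epithelia, was the exception at 0.80, from 1295 to 2256. Against control 2 the median of the desmosome genes was 0.09. Of the 12 kept tight junction genes, 11 were lower, with a median of -0.25: CLDN1, the claudin of stratified epithelia, was at 6153, 2917, 5309.7 and 3183 on the 4 arrays, whereas CLDN4 differed by 0.15 and CLDN7 by -0.25. The splicing regulator ESRP2, which sets epithelial isoforms, was at 1003 in control 1 and 501 with ethanol. Among 5 kept gap junction genes, GJB2 (connexin 26) differed by -1.45 and the other 4 lay between -0.41 and 0.55.

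Mucins and other surface proteins of epithelia were lower in 17 of 18 kept genes, 9 of them at least 2-fold, with a median of -1.05. MUC15 differed by -3.84, the membrane serine protease TMPRSS11E by -2.06, SLURP1 by -1.99, LYPD3 by -1.90 and PSCA by -1.55. The adhesion molecule CEACAM5 differed by -2.44 and its neighbour CEACAM6 was at 966 in control 1, 241 with ethanol and 93.4 in control 2, so that ethanol lay between the controls. MUC21 was at 285 in control 1, 123 after ethanol, 561 in control 2 and 429 after acetaldehyde, lowest with ethanol. LY6E was the single member above control 1, at 0.77. Against control 2 the median of the group was 0.01.

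Transcription factors of epithelial differentiation were lower along with these products. Of 27 kept, 25 were below control 1 and 11 at least 2-fold, with a median of -0.64. EHF, an ETS factor of epithelia, was at 1854 in control 1, 191 after ethanol, 514 in control 2 and 318 after acetaldehyde. ZNF750, needed for late differentiation of epidermis, was at 1870.3, 246, 988 and 465. For both, ethanol was the lowest array. The grainyhead-like factors GRHL1, GRHL2 and GRHL3, which drive barrier genes, differed by -2.75, -2.41 and -1.65, and the homeobox factors DLX5 and DLX3 by -2.06 and -1.48. OVOL1, a repressor that holds epithelial identity, was at 367 in control 1, 116 after ethanol, 319 in control 2 and 246 after acetaldehyde. Factors of earlier epithelial identity differed less: KLF5 by -0.70, KLF4 by -0.64, GATA3 by -0.32, TFAP2A by -0.19 and TFAP2C by -0.16, and BNC1 and CEBPB lay above control 1 by 0.12 and 0.31.

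In the Notch pathway, in which ligands on a neighbouring cell release an active fragment of the receptor, the median over 16 kept genes was -0.04, and 2 members were at least 2-fold lower. NOTCH3 was at 844 in control 1, 319 after ethanol, 992 in control 2 and 709 after acetaldehyde. NRARP, a feedback inhibitor that Notch itself induces, was at 425, 164, 434 and 337. The controls were close to each other for both genes, and ethanol lay well below them. The target HES1 differed by -0.60 and HES4 by -0.52, the receptors NOTCH1 and NOTCH2 by -0.29 and -0.14, and the ligands JAG1, DLL1 and JAG2 by 0.11, 0.13 and 0.34. Retinoid genes had 4 of 13 kept members at least 2-fold lower: RDH12 by -2.20, the retinoic acid carrier CRABP2 and the retinol esterifying enzyme LRAT by -1.85 each, and the receptor RARG by -1.13.

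Many of the lower genes were neighbours on their chromosomes. In RefSeq gene order over kept genes, the 219 lower genes held 22 runs of adjacent genes, with 64 genes in all and 9 runs of 3 or more, and the 121 higher genes held 5 runs, each a pair. The longest run, of 11 genes from IVL to S100A8, lies in the epidermal differentiation complex of chromosome 1. Of 63 protein-coding genes in this complex, 58 were on the array and 35 were kept, and 16 of the 35 were at least 2-fold lower with 0 at least 2-fold higher, at a median of -0.81. The low values were not spread evenly over it. The late cornified envelope genes LCE1A, LCE1C, LCE1D, LCE1E, LCE1F and LCE2A differed by between -0.45 (LCE1F) and 0.01 (LCE1C), while LCE3D differed by -2.62, and of the S100 genes in the complex only S100A8 and S100A9 reached 2-fold. Other runs were KLK5 to KLK8 and KLK10 to KLK14 on chromosome 19, DSC2 to DSG3 on chromosome 18, the serpins SERPINB13, SERPINB3 and SERPINB7 on chromosome 18, and WFDC12, PI3 and SLPI on chromosome 20. Neighbours such as these are often members of 1 gene family, so they are not independent observations.

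**Figure D2:**
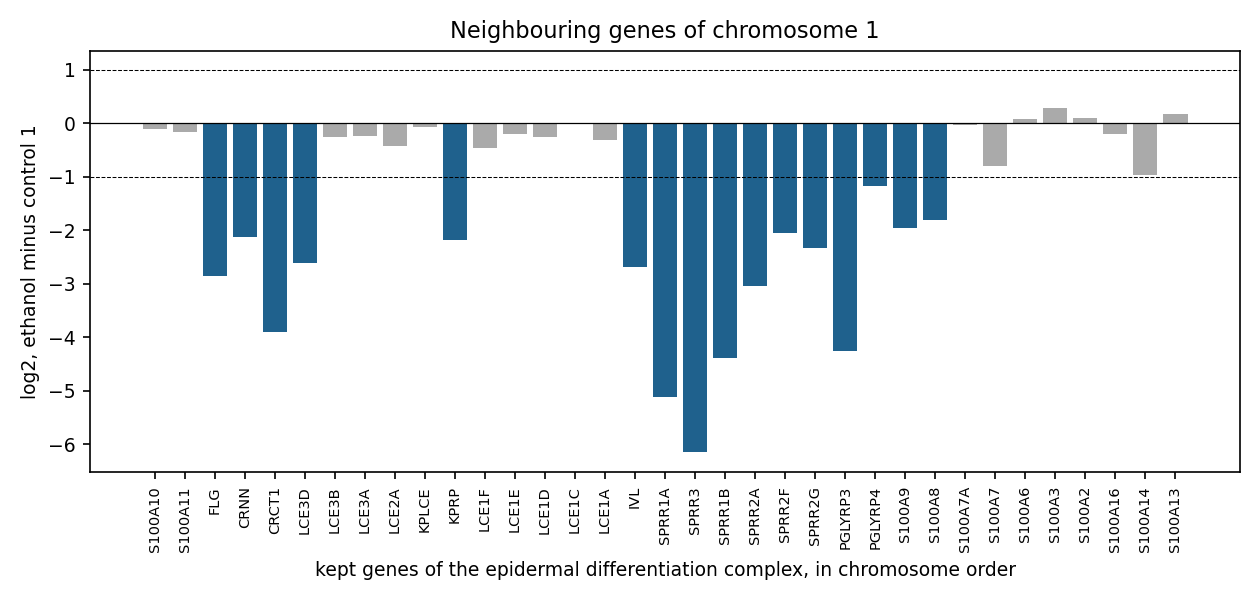
Bars give the log2 difference, ethanol minus control 1, of each of the 35 kept genes of the epidermal differentiation complex in chromosome order, and dashed lines mark 2-fold. The 16 blue bars are genes at least 2-fold lower: 11 stand in a block from IVL to S100A8, 4 in a shorter block from FLG to LCE3D, and KPRP stands alone among the late envelope genes, most of which lie near 0.

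The promoters of the lower genes were searched because members of these families were low together. The RefSeq promoter table of assembly GRCh38.p14 gave 1 window per gene, from 250 bases before the start to 50 after it, for 8392 of the kept genes. The 250 bases upstream of 4 envelope and keratin genes are shown here, 5′ to 3′ on the gene's strand, with capitals for matches to TATAAA, the TATA box, and TGANTCA, the core site of AP-1 factors. They lie at chr1:152983831-152984080 (SPRR1A, plus strand), chr1:153001499-153001748 (SPRR3, plus strand), chr1:152908296-152908545 (IVL, plus strand) and chr17:40822615-40822864 (KRT10, minus strand).
SPRR1A: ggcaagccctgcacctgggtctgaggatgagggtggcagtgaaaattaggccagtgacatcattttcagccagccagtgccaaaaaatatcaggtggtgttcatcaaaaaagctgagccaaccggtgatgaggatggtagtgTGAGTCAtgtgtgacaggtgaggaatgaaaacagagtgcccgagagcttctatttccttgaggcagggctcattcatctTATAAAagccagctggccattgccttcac
SPRR3: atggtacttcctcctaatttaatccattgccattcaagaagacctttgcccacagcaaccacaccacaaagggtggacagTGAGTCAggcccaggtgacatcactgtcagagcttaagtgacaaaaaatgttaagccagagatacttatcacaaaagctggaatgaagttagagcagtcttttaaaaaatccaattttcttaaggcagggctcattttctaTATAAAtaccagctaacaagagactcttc
IVL: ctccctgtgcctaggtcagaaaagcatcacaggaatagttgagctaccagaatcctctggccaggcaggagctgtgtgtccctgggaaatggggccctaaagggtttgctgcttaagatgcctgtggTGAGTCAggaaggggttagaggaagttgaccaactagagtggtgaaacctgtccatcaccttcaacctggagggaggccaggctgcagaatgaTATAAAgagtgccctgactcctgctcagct
KRT10: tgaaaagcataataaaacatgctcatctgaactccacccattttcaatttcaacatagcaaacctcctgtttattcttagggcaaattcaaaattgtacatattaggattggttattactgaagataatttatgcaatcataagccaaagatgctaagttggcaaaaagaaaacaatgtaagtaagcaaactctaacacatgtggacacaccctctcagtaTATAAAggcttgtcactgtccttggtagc

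SPRR1A, SPRR3 and IVL hold the TATA box close to the start and an AP-1 core further upstream, and KRT10 holds the TATA box alone of the motifs marked. Both strands of the 300-base window were searched. TATAAA was found in 5.82% of all 8392 promoters, 20.1% of the 164 promoters of genes at least 2-fold lower, 33.3% of the 69 at least 4-fold lower and 15.6% of the 90 at least 2-fold higher. TGANTCA was found in 4.33% of all, 16.5% of the lower, 30.4% of the 4-fold lower and 4.44% of the higher. AACCNGNT, a short form of the grainyhead-like site, was found in 7.15% of all, 16.5% of the lower, 17.4% of the 4-fold lower and 1.11% of the higher. TGACGTCA, the cyclic AMP response element, was found in 3.4% of all, 1.22% of the lower and 4.44% of the higher. Base composition also differed between these groups: the median GC content was 66.0% over all promoters, 59.0% for the lower, 53.33% for the 4-fold lower and 65.5% for the higher, with a median of 27 CG pairs over all promoters and 4 for the 4-fold lower. A match is a description of letters and not of a bound site, and the part of base composition in these shares was not tested. The lower genes include neighbours of the same gene families, so their promoters are not independent observations.

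**Figure D3:**
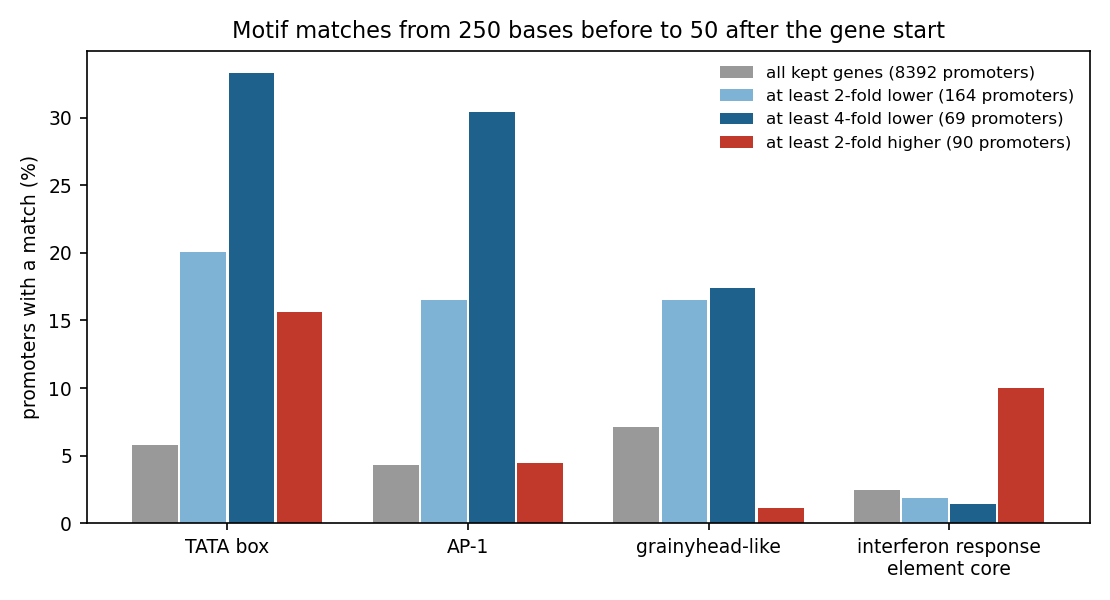
Bars give the percentage of 300-base promoter windows with at least 1 match to each motif on either strand, for all 8392 kept genes with a promoter (grey) and for those at least 2-fold lower, at least 4-fold lower and at least 2-fold higher with ethanol. TATA box and AP-1 matches are most frequent in the 4-fold lower genes (33.3% and 30.4%), and interferon response element cores in the higher genes (9 of 90).

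Because control 1 stood above control 2 for much of the squamous group, genes were also counted that were at least 2-fold away from both controls. This count was chosen after the values were seen. Below both controls were 45 genes (0.434%) and above both were 38 (0.366%). Part of each count was kept through 1 array alone. CDH11, IL31RA, SLC2A3, PSMB8 and ERAP1 reached the intensity used as a filter with ethanol only. SPINK7, CERS3 and KRTDAP reached it in control 1 only. With genes filtered on their mean over the 4 arrays, 34 were below both controls and 30 above. With no filter, 55 were below both controls and 44 above. KRT10, CALB1, SPRR1B, PI3, SPRR1A, PGLYRP3 and ZNF750 were at least 4-fold below both. CALB1 (calbindin), a calcium buffer, was at 8313 in control 1, 471 after ethanol, 3795 in control 2 and 1839 after acetaldehyde. CA2 (carbonic anhydrase 2) was at 1153, 310.2, 1083 and 857, and DLX5 at 301, 72.4, 237 and 111. HSD11B2, which inactivates cortisol, was at 683 in control 1, 249 after ethanol, 628 in control 2 and 322 after acetaldehyde. For CA2, DLX5 and HSD11B2 the controls lay close together and ethanol was lowest. AQP3, a water and glycerol channel, was at 3220.2, 1212, 2599 and 1434. The larger differences of the squamous group, by contrast, included genes for which control 2 matched ethanol: SLC6A14, an amino acid transporter, was at 2492 in control 1, 112 after ethanol, 108 in control 2 and 113 after acetaldehyde.

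**Figure D4:**
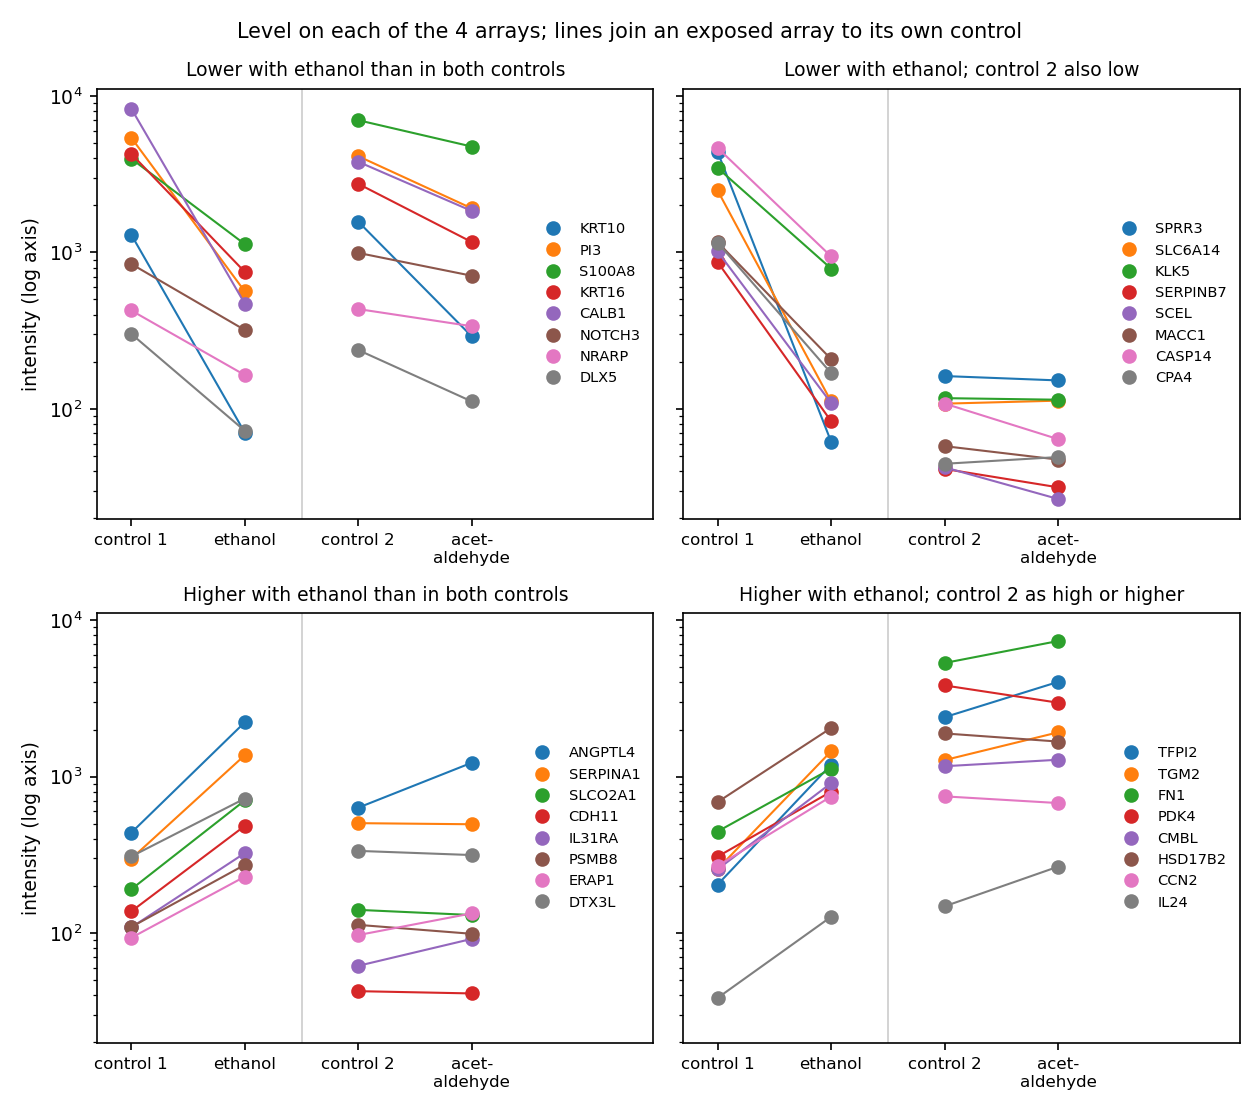
Intensities (log axis) on the 4 arrays for 8 example genes in each of 4 classes, with lines joining each exposed array to its own control. In the left panels ethanol lies beyond both controls, as with KRT10 (1298, 70.5, 1571 and 290.0). In the right panels are genes such as SLC6A14 and TFPI2, for which control 2 lies near or beyond the ethanol value. SPRR3, also on the right, is at 162 in control 2, far below control 1 (4404). Its ethanol value (61.8) is lower still, at a log2 difference of -1.39 from control 2.

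On the higher side were genes of adhesion and matrix. CDH11, a cadherin of mesenchymal cells, was at 138 in control 1, 484 after ethanol, 42.5 in control 2 and 41.1 after acetaldehyde. The immunoglobulin-family adhesion molecules NRCAM and MCAM differed by 1.89 and 1.68, and NRCAM was at 90.6, 336, 189 and 280.0 on the 4 arrays. For CDH11 ethanol was by far the highest array. In the list of adhesion molecules and factors of epithelial-mesenchymal transition, 13 of 17 kept genes were above control 1 (76.5%, against 57.8% of all kept genes). Of the 17, 4 were at least 2-fold higher, with a list median of 0.54, while CEACAM5 and CEACAM6 were at least 2-fold lower. ZEB1, a repressor of epithelial genes, was at 82.8 in control 1, 169 after ethanol, 241 in control 2 and 283 after acetaldehyde, so it was highest in the other experiment. The intermediate filament VIM differed by 0.88, SNAI2 by 0.49, P-cadherin (CDH3) by 0.54, EPCAM by 0.70 and E-cadherin (CDH1) by -0.32, so epithelial and mesenchymal members were not set apart by sign.

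Integrins, the receptors for matrix, were above control 1 in 10 of 11 kept genes, with a median of 0.66. ITGB6, the beta chain of a receptor that activates latent TGF-beta, was at 221 in control 1, 585 after ethanol, 118 in control 2 and 124 after acetaldehyde. ITGA5 and ITGAV, alpha chains of fibronectin and vitronectin receptors, differed by 0.88 and 0.80, the collagen receptor chain ITGA2 by 0.87 and the shared chain ITGB1 by 0.75. The hemidesmosome chains ITGA6 and ITGB4 differed by 0.37 and 0.14. Of 11 kept laminin and hemidesmosome genes, 10 were above control 1, with a median of 0.38, but against control 2 the median was -0.44. LAMB3, a chain of the laminin of epithelial basement membranes, was at 1098, 2795, 1822 and 2738 on the 4 arrays.

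In the interstitial matrix, 21 of 27 kept genes were above control 1 (77.8%, against 57.8% of all kept genes). Of the 27, 4 were at least 2-fold higher, and the median was 0.35. With dim genes included the matrix median was 0.18. FN1 (fibronectin) was at 446 in control 1, 1124 after ethanol, 5329 in control 2 and 7363 after acetaldehyde, far lower in the ethanol pair than in the other. THBS1 (thrombospondin 1), which also activates TGF-beta, was at 2401, 5193, 1045 and 2079, and TNC (tenascin C) at 186, 397, 120.0 and 110.5. For THBS1 and TNC ethanol was the highest array. CCN2, a matricellular target of TGF-beta and YAP, differed by 1.48 but was at 748 in control 2. BGN and COL6A1 differed by -0.96 and -0.91. Against control 2 the median of the matrix genes was -0.33. Among metalloproteinases and related proteins, 14 of 16 kept genes were higher, with a median of 0.69, or 0.30 with dim genes included. ADAM12 was at 140.3 in control 1, 362 after ethanol, 110 in control 2 and 119 after acetaldehyde. The gelatinase MMP2 differed by 1.29, and the inhibitors TIMP1 and TIMP2 by 0.82 and 0.83. The urokinase receptor PLAUR and its ligand PLAU differed by 0.98 and 0.77.

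The TGF-beta family was above control 1 in 18 of 21 kept genes, with a median of 0.47, or 0.26 with dim genes included. Among the ligands, INHBA (activin A) was at 230.04 in control 1, 487 after ethanol, 200 in control 2 and 404 after acetaldehyde, TGFB2 differed by 1.09 and TGFB1 by 0.59. The receptors TGFBR2 and TGFBR1 differed by 0.72 and 0.64, and LTBP1, which stores the latent ligand in matrix, by 0.89. The antagonist FST and the inhibitory SMAD6 differed by -0.22 and -0.09. Of the Wnt genes, 13 of 19 kept (68.4%, against 57.8% of all kept genes) were above control 1, with a median of 0.25, and the largest differences were those of the secreted antagonist DKK1, at 1232 in control 1, 2615 after ethanol, 718 in control 2 and 759 after acetaldehyde, the receptor LGR4 (0.93) and the antagonist SFRP1 (0.86). With dim genes included the Wnt median was -0.03.

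Genes that make and load peptides for antigen presentation were above control 1, and several were highest with ethanol among the 4 arrays. Of 19 such genes and related ligands on the array, 12 were kept, 10 were above control 1 and 2 at least 2-fold higher, with a median of 0.62. With dim genes included that median was 0.30. PSMB8, PSMB9 and PDCD1LG2 reached the filter intensity of 155 on the ethanol array alone. The median of control 2 minus control 1 for the same genes was 0.09. PSMB8, a catalytic subunit of the immunoproteasome, was at 109 in control 1, 273 after ethanol, 113 in control 2 and 98.9 after acetaldehyde. PSMB9, the subunit encoded beside it, was at 127, 217, 118 and 122. B2M, the light chain of class I molecules, was at 796, 1483, 809 and 933, and the checkpoint ligand PDCD1LG2 at 145, 318, 106 and 153. In these 4 genes the controls lay close together and ethanol was the highest array. TAP1, a subunit of the peptide transporter, differed by 0.67 and TAPBP by 0.94, but TAPBP was at 2718 in control 2, above its ethanol value of 2277. The stress ligands of natural killer cells diverged, with ULBP1 and RAET1E at -1.23 and -0.86 and MICB and MICA at 0.57 and 0.49.

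Further genes of the same process, chosen after their values were seen, were ERAP1, which trims peptides, at 93.3 in control 1, 229 after ethanol, 97.1 in control 2 and 134 after acetaldehyde, and PSME2, a subunit of the proteasome activator, at 424, 1086, 556 and 560.3. PSME1, its partner, differed by 0.57. DTX3L and PARP14, neighbours on chromosome 3 that take part in ADP-ribosylation, differed by 1.23 and 1.27, and APOL6 by 1.20, while SECTM1 was at 589 in control 1 and 1177 with ethanol. The butyrophilins BTN3A2 and BTN3A1, another adjacent pair, differed by 1.26 and 1.13, but both were higher in control 2 than with ethanol. The regulator IRF1 was at 104 in control 1, 227 after ethanol, 152 in control 2 and 190.4 after acetaldehyde. In the wider list of interferon-stimulated genes, 14 of 36 on the array were kept, 9 were above control 1 (64.3%, against 57.8% of all kept genes) and 5 below. The median was 0.24, or 0.28 against control 2, and TRIM22, PARP9 and IFI35 were higher by 0.92, 0.84 and 0.73 while OAS1 and SAMD9 differed by -1.15 and -0.68.

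The core of the interferon response element, 2 GAAA blocks with 2 bases of any kind between them, was found in 9 of the 90 promoters of higher genes (ABCC2, DTX3L, ERAP1, FAM171B, IL24, KLHL5, PARP14, PSME2 and SECTM1), against 2.44% of all 8392 promoters and 1.83% of the lower. The upstream 250 bases of PARP14, at chr3:122680589-122680838 on the plus strand, and of PSME2, at chr14:24146611-24146860 on the minus strand, are shown because both carry it close to the start, in capitals.
PARP14: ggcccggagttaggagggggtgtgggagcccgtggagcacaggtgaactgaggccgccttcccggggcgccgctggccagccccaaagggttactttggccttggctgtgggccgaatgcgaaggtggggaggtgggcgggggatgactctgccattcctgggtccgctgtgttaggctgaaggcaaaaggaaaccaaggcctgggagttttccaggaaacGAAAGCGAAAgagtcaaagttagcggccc
PSME2: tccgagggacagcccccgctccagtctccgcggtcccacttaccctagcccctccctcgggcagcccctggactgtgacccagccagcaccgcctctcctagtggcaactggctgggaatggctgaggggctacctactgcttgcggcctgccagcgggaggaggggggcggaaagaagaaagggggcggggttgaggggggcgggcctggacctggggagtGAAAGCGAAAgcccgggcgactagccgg

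The constitutive proteasome lay slightly above control 1 as a group. Of 28 kept subunits, 27 were higher and 0 reached 2-fold, with a range from -0.00 to 0.63 and a median of 0.34, against 0.05 over all kept genes, of which 57.8% were above control 1. PSMD1 differed by 0.63, PSMA5 by 0.59 and PSMA6 by 0.57.

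Innate sensors and cytokines diverged. TLR2, a receptor for bacterial lipoproteins, was at 119 in control 1, 643 after ethanol, 251 in control 2 and 313 after acetaldehyde, the highest level with ethanol. Its co-receptor CD14 differed by 0.60. The peptidoglycan recognition proteins PGLYRP3 and PGLYRP4 differed by -4.26 and -1.18, BPIFC by -4.21, and the antimicrobial proteins LCN2 and RNASE7 by -0.75 and -0.68. In the interleukin-1 family the receptor antagonist IL1RN differed by -2.70, IL1B by -1.46 and IL1A by -0.95, while the receptor IL1R1 differed by 0.66 and IL18 by 0.23. IL1RN was at 1846 in control 1, 284 after ethanol, 149.5 in control 2 and 68.4 after acetaldehyde, so ethanol lay between the controls. IL31RA, a cytokine receptor chain, was at 109, 324, 61.7 and 91.8, with ethanol highest. IL24 and IL6 were higher by 1.72 and 1.23, from dim values of 38.4 and 66.6 in control 1.

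Lipid and prostaglandin genes included some of the largest positive differences. ANGPTL4, a secreted inhibitor of lipoprotein lipase, was at 438 in control 1, 2225 after ethanol, 633 in control 2 and 1228 after acetaldehyde. SLCO2A1, which imports prostaglandins, was at 190.4, 704, 141 and 130.4, and PTGES, which makes prostaglandin E, at 1955, 3996, 1094 and 1532. For all 3 genes ethanol was the highest array. The fatty acid desaturases FADS1 and FADS2 differed by 1.31 and 0.82, the acyl transferase GPAM by 1.02, ACSL4 by 1.04 and the droplet coat protein PLIN2 by 0.84, while the synthases FASN and ACACA differed by -0.14 and -0.02. Over 35 kept fatty acid genes the median was 0.10, with 4 at least 2-fold higher and 1 lower. Of 23 kept cholesterol genes, 10 were above control 1 (43.5%, against 57.8% of all kept genes), with a median of -0.06, against 0.05 over all kept genes, and 0.32 against control 2. CES2, a carboxylesterase, was at 2018 in control 1, 768 after ethanol, 1067 in control 2 and 759 after acetaldehyde.

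The enzymes that handle ethanol and aldehydes were mostly dim or near control 1. Of 31 on the array, 15 were not kept: ADH1A was at 64.0 in control 1 and 68.9 with ethanol, ADH1B at 21.5 and 19.3, ADH7 at 23.5 and 17.6, ALDH1A1 at 20.7 and 19.01, the mitochondrial acetaldehyde oxidiser ALDH2 at 86.6 and 82.2, and the ethanol-oxidising cytochrome CYP2E1 at 90.6 and 73.3. These values are below the filter on all 4 arrays, so differences in them are among the least certain. The 16 kept had a median of -0.01, with 8 above and 8 below control 1. ADH5, the class of alcohol dehydrogenase found in all tissues, differed by 0.49, the mitochondrial ALDH1B1 by 0.62, ALDH7A1 by 0.63, AOX1 by 0.94, ACSS2, which activates acetate, by 0.47 and catalase (CAT) by 0.04. ALDH3B2 alone was past 2-fold, at 459 in control 1, 75.5 after ethanol, 226 in control 2 and 156 after acetaldehyde, the lowest value being that of ethanol.

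Genes of glutathione and thioredoxin were above control 1 in 27 of 41 kept members (65.9%, against 57.8% of all kept genes), with a median of 0.19, or -0.08 against control 2. GCLC and GCLM, subunits of the enzyme that limits glutathione synthesis, differed by 1.23 and 0.97, and the export pump ABCC2 by 1.17, but GCLC was at 862 in control 1, 2015 with ethanol and 2628 in control 2. SLC7A11, which imports cystine for glutathione, went the other way, by -1.18. Among aldo-keto and quinone reductases, 8 of 12 kept genes were above control 1 (66.7%, against 57.8% of all kept genes). Their median was 0.43, or -1.06 against control 2. HSD17B2, which oxidises estradiol to estrone, was at 687, 2046, 1889 and 1676 on the 4 arrays, AKR1C3 differed by 1.15 and NQO1 by 0.48. Control 2 was about as high as ethanol or higher for each of these 3 genes. Metallothioneins and zinc carriers were higher in 12 of 15 kept genes (80.0%, against 57.8% of all kept genes). Their median was 0.38, or -0.11 against control 2. MT1F, which binds zinc and copper, was at 2248 in control 1, 5041 after ethanol, 3193 in control 2 and 3477 after acetaldehyde. The family members are close in sequence and probes may read several.

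ATF4 targets, which cells induce when amino acids are short, were below control 1 in 23 of 26 kept genes, with a median of -0.44, and 3 were at least 2-fold lower. CHAC1, which degrades glutathione, was at 1102 in control 1, 340.01 after ethanol, 172 in control 2 and 132 after acetaldehyde. The others past 2-fold were STC2 (-1.33) and SLC7A11, and TRIB3, ASNS and SESN2 differed by -0.93, -0.80 and -0.79. Control 2 was below ethanol for CHAC1, TRIB3, ASNS and SESN2, and against control 2 the median was 0.18. Of 19 tRNA synthetases, 12 were lower (63.2%, against 42.2% of all kept genes), with a median of -0.15. Chaperones of the endoplasmic reticulum were higher in 17 of 21 kept genes (81.0%, against 57.8% of all kept genes). Their median was 0.21, led by PDIA4 (0.82) and DNAJC3 (0.80). HSPA5 (BiP), the main chaperone there, was at 2979.9 in control 1, 4768 after ethanol, 3846 in control 2 and 4770.4 after acetaldehyde.

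In the cell cycle, 41 of 42 kept mitosis and spindle genes were above control 1 (97.6%, against 57.8% of all kept genes). Their median was 0.42, against 0.05 over all kept genes, with 1 past 2-fold. KIF20A, a kinesin of cell division, was at 317 in control 1, 835 after ethanol, 1335 in control 2 and 1301 after acetaldehyde, and CENPF differed by 0.92 and DLGAP5 by 0.73. Both arrays of the other experiment were higher than the ethanol array for these 3 genes. Replication-dependent histones, whose messages lack poly(A) tails, were below control 1 in 35 of 36 kept genes, with a median of -0.36, and control 2 was lower still, by a median of -1.04 against control 1. Their sequences are near-identical within a class, so the members are not separate observations. Replication and G1/S genes were higher in 34 of 44 (77.3%), with a median of 0.15. DNA repair genes were higher in 22 of 27 (81.5%), with a median of 0.20 and none past 2-fold. ATM, a kinase that senses breaks, differed by 0.49. Targets of p53 were evenly divided, 13 above and 13 below, and FUCA1, a lysosomal fucosidase, was at 325 in control 1, 939.9 after ethanol, 236 in control 2 and 299.97 after acetaldehyde.

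Respiratory chain genes were higher in 26 of 30 kept members (86.7%, against 57.8% of all kept genes). Their range was narrow, from -0.09 to 0.46, with a median of 0.12, or -0.15 against control 2. Cytosolic ribosomal proteins had a median of -0.03 over 31 kept genes and a range from -0.31 to 0.31. The growth factor receptors EGFR and ERBB2 differed by 0.10 and -0.84, and ERBB3 by -1.40. Of breast and hormone genes, 9 of 31 on the array were kept, and AZGP1, a secreted glycoprotein of luminal and apocrine cells, differed by -1.94. Among carriers and channels, the sodium channel subunits SCNN1B and SCNN1G diverged, at -1.80 and 1.58, the sulfate transporter SLC26A2 differed by 1.67, and the glucose transporter SLC2A3 was at 119 in control 1, 303 after ethanol, 97.7 in control 2 and 142 after acetaldehyde, with ethanol highest.

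Few noncoding RNAs were past 2-fold, but so were few of all kept genes (1.17% higher and 2.11% lower). Counts in classes this small do not set noncoding RNAs apart from other genes. Of 109 kept long noncoding RNAs, 84 small nucleolar RNAs and 20 microRNA genes, 1 small nucleolar RNA and none of the others was at least 2-fold higher, and none was 2-fold lower, with medians of -0.04, 0.03 and -0.23. The small nucleolar RNA was SNORD4A, at 1.06. Of the microRNA genes, 3 of 20 were above control 1, against 57.8% of all kept genes. In a class of 11 other noncoding RNAs, 2 were at least 2-fold higher, SCARNA9 and its copy SCARNA9L. The small Cajal body RNA SCARNA9, which guides the modification of spliceosomal RNA, was at 100.04 in control 1, 274 after ethanol, 103 in control 2 and 219 after acetaldehyde, so both exposed arrays lay above both controls. SCARNA9L was at 138, 314, 105 and 199.5 on the same arrays, and probes may read both copies. The probes read the microRNA gene or its precursor, not the mature strand. MIR21, the gene of an abundant microRNA of growing epithelial cells, was among the 3 microRNA genes above control 1, at 221 in control 1, 351 after ethanol, 942 in control 2 and 1329 after acetaldehyde. Its mature 5′ strand in RefSeq, at chr17:59841273-59841294 on the plus strand, is shown with the seed (bases 2 to 8), which pairs with target messages, in capitals.
hsa-miR-21-5p: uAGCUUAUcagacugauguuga

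**Figure D5:**
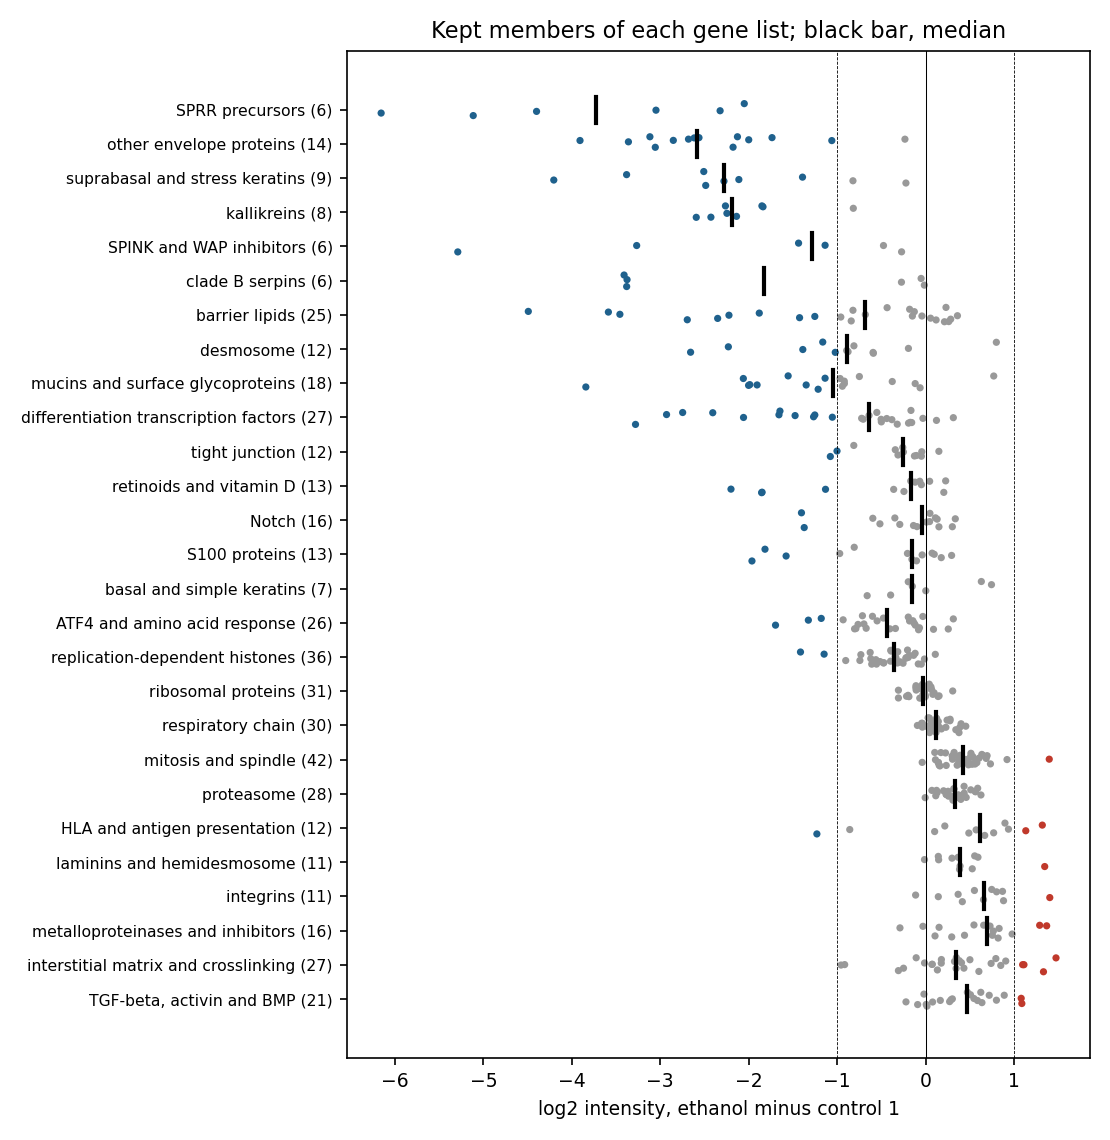
Points are kept genes of each list, placed by the log2 difference of ethanol minus control 1, with kept members in parentheses; black bars are medians and dashed lines 2-fold, and blue and red points are past 2-fold. Lists of envelope, keratin, kallikrein and lipid genes lie to the left (medians down to -3.72), ribosomal and respiratory genes near 0, and matrix, integrin and metalloproteinase genes to the right (medians up to 0.69).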

How the data were processed

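RNA of 4 MCF12A cultures was read on 4 arrays, 1 per group, and groups were taken from the labels. The authors deposited 1 linear intensity per probe set and array. The submitters' processing notes name RMA, which corrects background, quantile-normalizes and summarises probes, with its software and version not given in the sources used here. RMA forces a common distribution within a run, so a shift shared by most genes would not show, and levels across runs are less certain. From the deposited intensity log2 was taken here, with no offset.

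Of 33297 probe sets, the platform annotation gave 1 symbol for 19460, several for 1754 and none for 12083, and only the first were used. Gene IDs matched RefSeq (GRCh38.p14) for 19429 of them, and 0 symbols differed. For the 769 of 18417 genes with several probe sets, that with the highest mean stood for the gene. Of the genes past 2-fold, 12 had several probe sets, and 0 had one of opposite sign. Genes were kept if their highest value reached the median of gene-naming values (log2 7.28). A gene can be kept through 1 array alone, be it control 1 or ethanol. Counts over kept members therefore describe the arrays and are no support.

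The named genes are the 15 highest and 15 lowest, up to 6 members of each of 72 lists (all members where 12 or fewer were kept) and members of neighbour runs; others named, such as genes beyond both controls and further list members, were chosen after their values were seen. The members and lists were chosen with earlier results of these data known. The counting was tested on simulated data, and alternatives are given in the closing section. Arrays carry no read depth. Python 3.11.15, pandas 2.3.3, numpy 2.4.6 and matplotlib 3.10.9 were used.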

Additional observations from a re-analysis of the deposited data

Results flagged for a closer look

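Of 44 gene lists, 14 had medians of opposite sign in the ethanol and acetaldehyde experiments, and in 4 of these both medians were at least 0.1 in size. The clade B serpins had a median of -1.82 for ethanol minus control 1 and 0.11 for acetaldehyde minus control 2. The aldo-keto and quinone reductases had 0.43 and -0.15 in the same order. The interferon-stimulated list had a median of 0.24 for ethanol minus control 1 and -0.21 for acetaldehyde minus control 2. The tRNA synthetases had a median of -0.15 for ethanol minus control 1 and 0.13 for acetaldehyde minus control 2. Each exposure had 1 array and its own control, and the difference between the experiments was not tested.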

How the results depend on the processing

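Besides the values reported, 9 alternative settings were run. With quantile normalization of all arrays, median centring, the mean of a gene's probe sets, an offset of 16, no filter on dim genes or a filter on the mean, the counts past 2-fold stayed within 1.5 times those reported (89 to 144 higher, 156 to 260 lower), and no named gene past 2-fold took the other sign. Without the filter the medians of other serpins (-0.077) and Wnt (-0.027) took the other sign, and those of SPRR precursors (-2.26), other envelope proteins (-1.87), SPINK and WAP inhibitors (-0.64) and clade B serpins (-0.27) lay nearer 0. On the higher side, medians of metalloproteinases (0.30), antigen presentation (0.30), the TGF-beta family (0.26) and the interstitial matrix (0.18) also lay nearer 0 without the filter. At 1.5-fold, 564 genes were higher and 438 lower, with 223 above and 156 below both controls, and over all probe sets 228 were higher.

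With control 2 in place of control 1, 511 genes were at least 2-fold higher and 400 lower, on a scale that may differ between the experiments. Of the 44 lists whose medians were recomputed, 20 then took the other sign: clade B serpins 0.86, gap junction 0.51, retinoids 0.073, laminins and hemidesmosome -0.44, aldo-keto reductases -1.06, respiratory chain -0.15, glutathione -0.079, cholesterol 0.32, fatty acids -0.049, p53 targets -0.052, basal and simple keratins 0.95, kallikreins 0.23, desmosome 0.093, mucins and surface glycoproteins 0.0076, matrix -0.33, metallothioneins -0.11, ATF4 0.18, tRNA synthetases 0.065, mitosis -0.31 and histones 0.54. Of named genes at least 2-fold lower than control 1, these lay above control 2, by differences of A2ML1 0.64, CEACAM5 0.22, CEACAM6 1.37, CHAC1 0.98, CRCT1 0.24, DSC2 0.15, DSG3 0.071, DSG4 1.03, GJB2 0.22, IL1B 0.40, IL1RN 0.93, KLK10 0.25, KLK5 2.75, KLK6 1.45, KLK7 1.42, KRT80 0.54, LIPK 0.15, LRAT 2.51, LYPD3 0.37, PPL 0.027, SCNN1B 0.35, SERPINB7 1.02, SLC6A14 0.050, SLC7A11 0.25, SPRR2A 0.34 and TMPRSS11E 0.61. Of those at least 2-fold higher than control 1, these lay below control 2: ABCC2 -0.079, AKR1C3 -1.55, BTN3A1 -0.13, BTN3A2 -0.15, CCN2 -0.0032, FAM171B -0.88, FN1 -2.25, GCLC -0.38, IL24 -0.22, KIF20A -0.68, MMP2 -0.049, TFPI2 -1.01, TGFB2 -0.017 and ZEB1 -0.51. The cause was not tested.

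No paired analysis was possible because each group has 1 array. Values under the filter intensity are close to background, and their folds are the least certain.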

Other observations

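Further genes were at least 2-fold above both controls with ethanol and were named after their values were seen. ETV1, an ETS transcription factor, was at 179 in control 1, 481 after ethanol, 158 in control 2 and 232 after acetaldehyde. GLIPR1, a secreted protein that p53 can induce, was at 493, 1169, 253 and 317 on the same arrays. CLU (clusterin), an extracellular chaperone, was at 295 in control 1, 708 after ethanol, 252 in control 2 and 272 after acetaldehyde. For each of the 3 genes the ethanol array was the highest.

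The membrane lipid genes MFSD2A and ST3GAL5 were among them as well, and so was NT5E. MFSD2A, which imports lysophospholipids that carry docosahexaenoic acid, was at 906 in control 1, 2008 after ethanol, 912 in control 2 and 911 after acetaldehyde. ST3GAL5, which makes the ganglioside GM3, was at 266, 559.6, 275 and 283. NT5E (CD73), which turns AMP into adenosine, was at 2274 in control 1, 4610.3 after ethanol, 1016 in control 2 and 1663 after acetaldehyde. For MFSD2A and ST3GAL5 the controls and acetaldehyde were nearly equal and ethanol stood alone.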
